A study of Mus musculus with 12 samples.

Results

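The mitosis and cytokinesis genes described here are 47 genes whose products condense and hold the chromosomes, build the spindle, attach kinetochores to it, run the checkpoint and divide the cytoplasm. They were chosen by symbol, and all 47 were found among the 53599 genes of the count table. All 47 also passed the filter on low counts, which kept 16210 genes in all.

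The libraries are bulk RNA-seq of cells sorted from the livers of WT mice, with 3 libraries in each of 4 groups. Every mouse had received AAV8-TBG-Cre, a viral vector in which a hepatocyte promoter drives Cre, and, 1 week later, a diet with 0.1% DDC for 8 weeks. DDC is a porphyria-inducing compound that injures the bile ducts and causes a ductular reaction. EGFP is the mark of cells in which Cre acted, so of hepatocyte origin as far as the vector is restricted to hepatocytes; the labels name no reporter allele. Cells of the early group were EGFP+ Cd24- Epcam-, those of the intermediate group EGFP+ Cd24+ Epcam-, and those of the full group EGFP+ Cd24+ Epcam+. The BEC group, of resident biliary epithelial cells, was EGFP- Epcam+. All 4 groups thus share the vector and the injury, no uninjured group was analysed here, and the labels give no age. They also do not say whether the 3 replicates of a group came from separate mice, so the p-values measure the spread between these libraries, which may in part be technical.

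A dividing cell raises cyclin B with Cdk1, condenses its chromosomes, captures each kinetochore on spindle microtubules and waits for the last attachment before the anaphase promoting complex frees the sister chromatids. The chromosomal passenger complex corrects wrong attachments and then moves to the central spindle, where kinesins and GTPase regulators place the cleavage ring. Most of these genes are transcribed late in the cell cycle by the MuvB complex with Mybl2 and Foxm1, through a short promoter element, the cell cycle homology region, often next to CCAAT boxes bound by NF-Y. Adult hepatocytes rarely divide and many are polyploid, because cytokinesis can fail as the liver matures; injury brings both hepatocytes and biliary cells back into the cycle.

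Total counts lay between 15112893 and 19731887 per library, and 3 counts, the floor used here, corresponded to 0.128 to 0.273 CPM (counts per 1000000, here written CPM). CPM values were scaled by edgeR's trimmed mean of M values. The sorting markers followed the gates: mean Cd24a was 3.20, 444, 1074 and 1073 CPM in early, intermediate, full and BEC cells, and mean Epcam 0.592, 18.8, 254 and 866 CPM. The summed level of 12 hepatocyte markers fell from 101991 to 106790 CPM in early libraries to 2120 to 2794 CPM in BEC libraries, and mitochondrial transcripts took a mean of 7.63% of counts in early cells and 2.33% to 4.27% in the other groups. Early replicate 2, the early library with the lowest level of the 47 genes, had a mitochondrial share of 11.4%, against 6.001% and 5.45% in early replicates 1 and 3; its part in that level was not tested.

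The level of the 47 genes was highest in the full and BEC cells, and the mean was lowest in the intermediate cells with the scaling used here. Their summed level was 249, 189 and 455 CPM in early replicates 1, 2 and 3, and 157, 153 and 202 CPM in the intermediate libraries. It reached 682, 800 and 907 CPM in the full libraries and 731, 734 and 976 CPM in the BEC libraries. No intermediate library reached the level of a full or BEC library, while early replicate 2 lay within the intermediate range and early replicate 3 stood apart from the other early libraries. The median log2 CPM over the genes gave the same order, with 2.02, 1.31 and 2.82 in early, 0.90, 0.76 and 1.50 in intermediate, 3.44, 3.75 and 3.90 in full and 3.54, 3.51 and 3.93 in BEC libraries. The place of the early libraries depended on the scaling, whose factors were 0.652 to 0.672 in early and 1.03 to 1.05 in intermediate libraries. By total counts alone the summed level was 162, 124 and 305 CPM in early and 165, 161 and 208 CPM in intermediate libraries, and the median log2 CPM 1.43, 0.73 and 2.26 against 0.98, 0.84 and 1.54. Early replicate 1 then lay inside the intermediate range and early replicate 2 below it, so that early replicate 3 alone stood above the intermediate libraries. The full and BEC libraries, at 813 to 1174 CPM, remained above all early and intermediate ones. In bulk libraries, fewer cells in mitosis and less RNA of these genes per cell cannot be told apart.

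**Figure D1:**
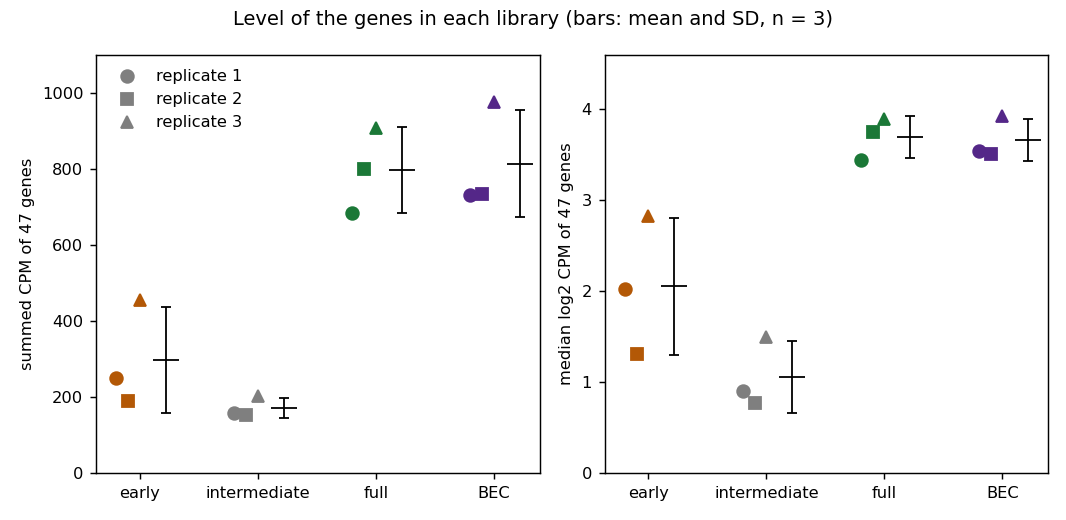
Level of the mitosis and cytokinesis genes in each library, as the sum of CPM over the 47 genes (left) and as their median log2 CPM (right). Symbols are libraries by replicate number and the bars give the mean and SD (n = 3). The 3 intermediate libraries sit between 153 and 202 summed CPM, below the 6 full and BEC libraries at 682 to 976, and replicate 3 is the highest library in each group.

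Early replicate 3 was the highest early library for 43 of the 47 genes, against 32.7% of all genes tested. Its CPM was a median of 2.51 times the mean of early replicates 1 and 2 over the 47 genes, with a range from 0.922 to 5.63. Replicate 3 was also the highest library for 34 genes in the intermediate group, 42 in the full group and 45 in the BEC group, against 33.2%, 32.0% and 36.3% of all genes. Values of single genes among the 47 against early cells are therefore also given without early replicate 3 where its absence ends a call, turns a sign or moves the value by over 1.5 times. Its hepatocyte, macrophage and endothelial marker sums (106220, 27.6 and 25.1 CPM) lay inside the range of the other early libraries, and its biliary sum of 1972 CPM (982 and 1203 in the others), stellate sum of 372 CPM and erythroid sum of 150 CPM were the highest of the early group; their part in the level of these genes was not tested.

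Each gene was tested by edgeR's quasi-likelihood test across all 12 libraries, with Benjamini-Hochberg adjustment over 16210 genes, and a gene is called where the adjusted p is under 0.05. All 47 genes were called in the test of any difference among the 4 groups, as were 75.6% of all genes. Between early and intermediate cells 29 of the 47 were called lower (25.7% of all genes) and 1 was called higher (28.7%). Scaled by total counts alone, 11 were lower and 7 higher, in a fit that called 11249 of the 16210 genes, 85.6% of them higher. Between intermediate and full cells 46 were called higher (20.8% of all genes) and 1 was called lower (19.8%). Between full and BEC cells none was called, where 21.3% of all genes were. The median log2 fold change of the 47 was -1.21 at the first step and 2.96 at the next, beside 0.06 and 0.01 over all genes. For 17 genes every intermediate library lay below every other library of the series, a pattern held by 1.17% of all genes. For 45 genes every intermediate library lay below every full and BEC library (22.1% of all genes).

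**Figure D2:**
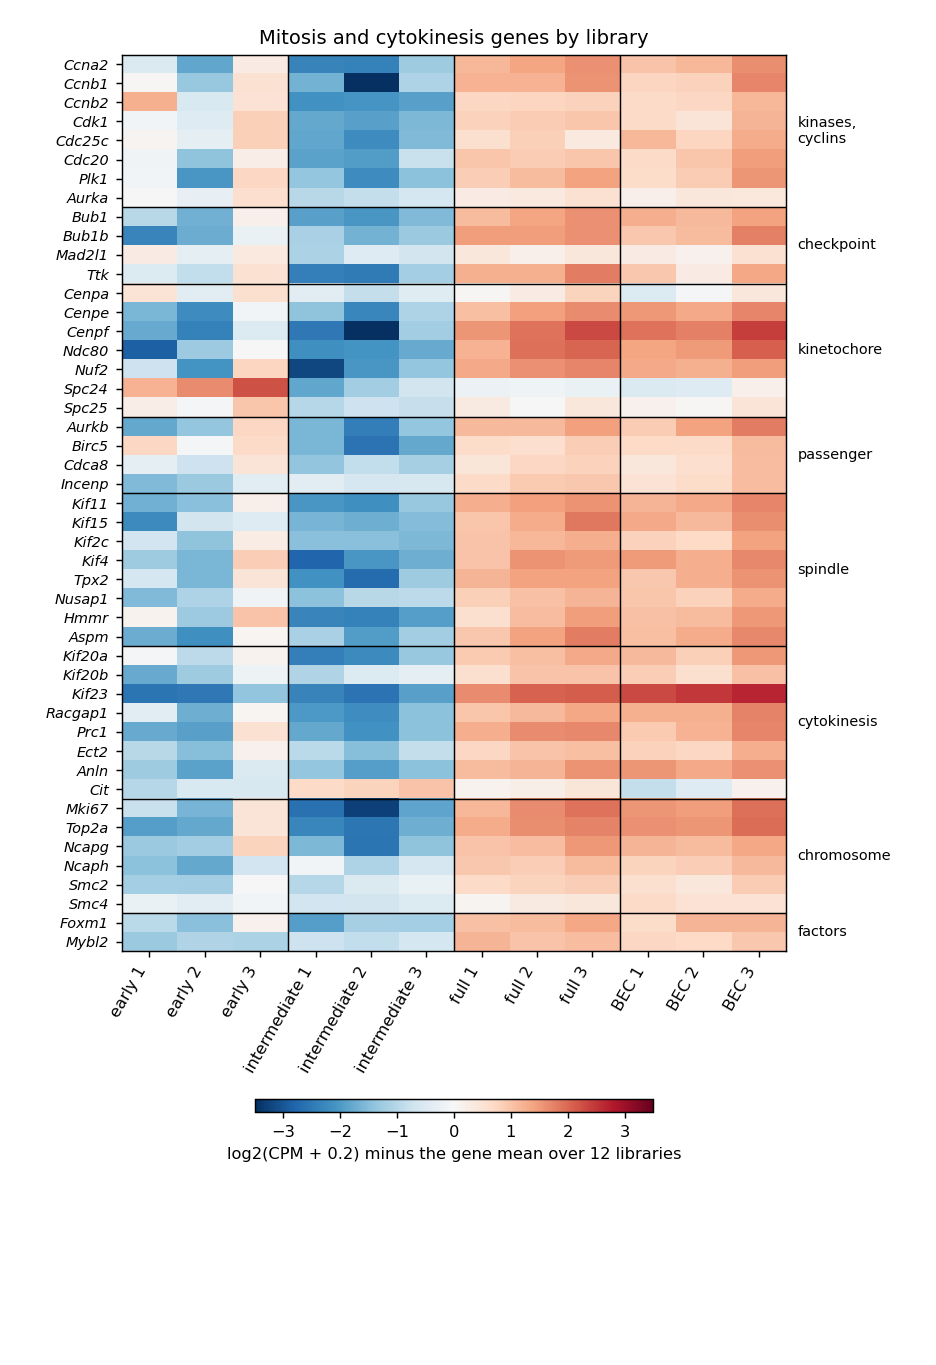
Log2(CPM + 0.2) of each gene in each of the 12 libraries, minus its mean over the libraries, with genes grouped by function and libraries by group. Blue is below and red above the gene's own mean. The 6 full and BEC columns are red for nearly every gene, the 3 intermediate columns are blue for all but Cit and a few pale rows, and Spc24 is highest in the 3 early columns.

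Promoters are shown because these genes moved together and share elements near their start sites. RefSeq windows of 300 bases (250 before and 50 after the start, build GRCm38.p6, not the build used for counting) were matched by symbol for 38 of the 47 genes, in 40 windows. The cell cycle homology region, searched as TTTGAA and TTCGAA on both strands, was found for 29 of 38 genes (76.3%), against 21.7% of 27025 genes. CCAAT boxes, searched as CCAAT on both strands, were found for 26 of 38 genes (68.4%), against 41.1%. E2F motifs, searched as TTTCCCGC, TTTGGCGC, TTTCGCGC and TTTGCCGC on both strands, were found for 3 of 38 genes (7.89%), against 2.61%. TTTGAA and TTTGGCGC share their opening letters, and none of the motifs contains another, though matches can share bases at their ends. The homology region began between bases 1 and 50 after the start in 52.5% of the 40 windows of these genes and in 2.46% of all 32851 windows. A match describes letters in the window and is not a measured binding site. No homology region was found in the windows of Birc5, Ccnb1, Cenpe, Cit, Mad2l1, Mybl2, Ncaph, Nuf2 and Nusap1. The windows printed here are, in each class that has one, those of the gene with a homology region and the largest change between intermediate and full cells. Capitals mark the homology region (TTTGAA, or TTCAAA where it lies on the other strand) and the CCAAT box (CCAAT or ATTGG), and the sequences run 5′ to 3′ on the gene's strand. They are Ccnb2 at chr9:70421505-70421804 (minus strand), Ttk at chr9:83834439-83834738 (plus), Ndc80 at chr17:71526808-71527107 (minus), Cdca8 at chr4:124936868-124937167 (minus), Kif4 at chrX:100625815-100626114 (plus), Kif23 at chr9:61946750-61947049 (minus) and Mki67 at chr7:135716330-135716629 (minus).
Ccnb2: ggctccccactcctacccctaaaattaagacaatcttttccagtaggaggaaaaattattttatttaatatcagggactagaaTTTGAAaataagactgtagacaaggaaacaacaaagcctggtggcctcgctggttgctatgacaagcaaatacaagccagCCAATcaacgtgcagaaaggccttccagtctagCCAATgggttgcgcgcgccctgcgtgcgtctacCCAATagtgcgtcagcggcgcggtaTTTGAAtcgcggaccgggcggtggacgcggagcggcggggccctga
Ttk: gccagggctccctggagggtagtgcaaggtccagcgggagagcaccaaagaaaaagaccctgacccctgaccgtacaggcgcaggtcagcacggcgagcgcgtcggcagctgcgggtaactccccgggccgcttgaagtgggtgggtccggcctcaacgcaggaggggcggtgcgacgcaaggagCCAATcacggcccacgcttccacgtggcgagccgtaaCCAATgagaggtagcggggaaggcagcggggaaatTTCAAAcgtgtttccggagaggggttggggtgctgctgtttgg
Ndc80: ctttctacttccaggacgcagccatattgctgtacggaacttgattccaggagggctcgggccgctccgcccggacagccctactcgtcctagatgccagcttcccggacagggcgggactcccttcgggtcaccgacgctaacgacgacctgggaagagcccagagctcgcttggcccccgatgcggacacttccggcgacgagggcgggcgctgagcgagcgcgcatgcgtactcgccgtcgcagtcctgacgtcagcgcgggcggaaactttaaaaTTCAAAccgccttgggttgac
Cdca8: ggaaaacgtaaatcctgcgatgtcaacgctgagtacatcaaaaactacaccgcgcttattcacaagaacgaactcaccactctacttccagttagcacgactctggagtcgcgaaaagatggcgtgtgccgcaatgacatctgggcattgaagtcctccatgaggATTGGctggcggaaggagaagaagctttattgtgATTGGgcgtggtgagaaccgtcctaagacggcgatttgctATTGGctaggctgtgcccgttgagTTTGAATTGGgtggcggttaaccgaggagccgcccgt
Kif4: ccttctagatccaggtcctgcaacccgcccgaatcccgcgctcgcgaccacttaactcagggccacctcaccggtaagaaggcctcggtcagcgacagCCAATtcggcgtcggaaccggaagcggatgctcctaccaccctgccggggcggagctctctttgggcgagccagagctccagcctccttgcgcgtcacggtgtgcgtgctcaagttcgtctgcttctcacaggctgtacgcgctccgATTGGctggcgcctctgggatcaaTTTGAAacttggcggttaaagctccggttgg
Kif23: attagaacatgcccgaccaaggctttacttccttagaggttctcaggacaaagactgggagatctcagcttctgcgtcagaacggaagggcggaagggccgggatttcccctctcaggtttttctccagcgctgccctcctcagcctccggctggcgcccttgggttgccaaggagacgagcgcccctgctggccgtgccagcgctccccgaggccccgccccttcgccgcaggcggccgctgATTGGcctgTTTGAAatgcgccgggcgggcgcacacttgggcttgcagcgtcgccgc
Mki67: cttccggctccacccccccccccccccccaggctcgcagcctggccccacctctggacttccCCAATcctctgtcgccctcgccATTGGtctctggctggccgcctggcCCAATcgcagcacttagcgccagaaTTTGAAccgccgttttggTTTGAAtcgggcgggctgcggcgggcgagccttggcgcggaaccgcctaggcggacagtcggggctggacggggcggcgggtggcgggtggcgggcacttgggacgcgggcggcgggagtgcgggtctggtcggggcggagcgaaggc
In 6 of these windows the homology region has a match from base 3 to base 30 after the start, while the pair of matches in Mki67 begins 116 and 98 bases before it. The Cdca8 match shares its last base with a CCAAT box on the other strand, so the capitals there join as TTTGAATTGG. Ndc80 has no CCAAT match in its window.

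**Figure D3:**
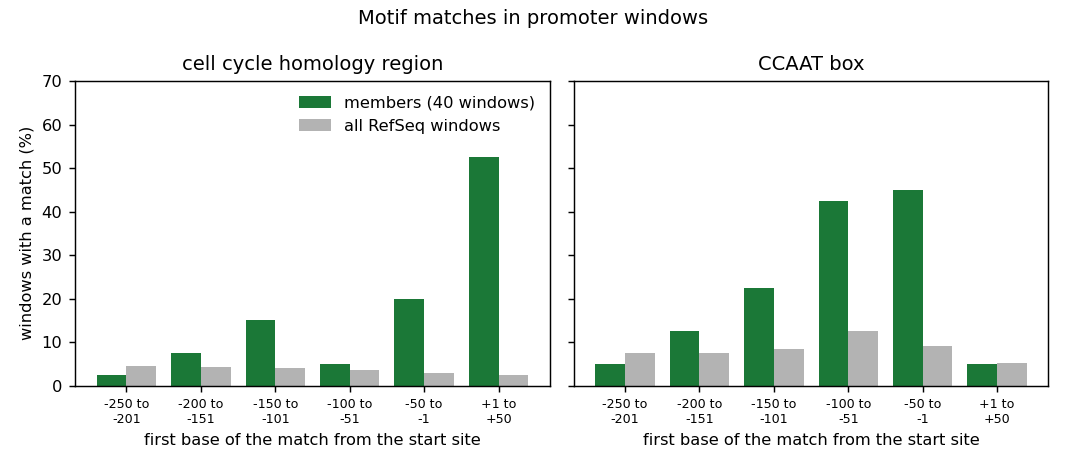
Share of promoter windows with a match that begins in each stretch of 50 bases around the start site, for the cell cycle homology region (left) and the CCAAT box (right). Green bars are the 40 windows of the mitosis and cytokinesis genes and grey bars all 32851 RefSeq windows. Of the green windows 52.5% have a homology region match in the 50 bases after the start, and 42.5% and 45% have a CCAAT match in the stretches from 100 to 51 and from 50 to 1 bases before it.

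Kinases, cyclins and activators drive entry into mitosis and its exit, and all 8 of them were lower in intermediate than in early cells (median log2 fold change -1.82). All 8 were then higher in full cells (median 2.96). Cdk1, the kinase of mitotic entry, stood at 8.07, 6.27 and 15.5 CPM in early, 2.33, 2.14 and 2.77 in intermediate, 15.2, 15.9 and 17.1 in full and 13.6, 11.7 and 19.7 in BEC libraries. The 3 intermediate libraries were the lowest, and early replicate 3 reached the level of the full libraries. Cdk1 was 4.13-fold lower in intermediate than in early cells (log2 -2.05, SE 0.32, edgeR adjusted p = 9.53e-05) and 6.64-fold higher in full than in intermediate cells (log2 2.73, SE 0.31, adjusted p = 1.11e-05). Its partner Ccnb1, cyclin B, was at 4.35, 1.55 and 6.15 CPM in early, 1.19, 0.110 and 1.87 in intermediate, 10.04, 10.03 and 12.8 in full and 7.23, 7.45 and 14.3 in BEC libraries. Intermediate replicate 3 overlapped early replicate 2, and the full and BEC libraries were all above both groups. The log2 change of Ccnb1 was -1.94 (SE 0.61, edgeR adjusted p = 0.0152) and then 3.38 (SE 0.57, adjusted p = 0.000347); without early replicate 3 the first was -1.50 (adjusted p = 0.0798).

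Plk1, the polo kinase that matures centrosomes and triggers cytokinesis, was at 3.72, 0.818 and 6.72 CPM in early, 1.45, 0.712 and 1.36 in intermediate, 7.40, 8.96 and 10.9 in full and 6.41, 7.55 and 12.2 in BEC libraries. Early replicate 2 lay inside the intermediate range, and the full and BEC libraries overlapped each other, with early replicate 3 just above the lowest BEC library. Its log2 change was -1.70 (SE 0.55, edgeR adjusted p = 0.018), or -0.99 (adjusted p = 0.153) without early replicate 3, and 2.96 between intermediate and full cells (SE 0.52, adjusted p = 0.000439). Aurka, the centrosomal Aurora kinase, had the smallest changes of the class. It was at 5.46, 4.37 and 8.09 CPM in early, 2.64, 2.90 and 3.40 in intermediate, 6.64, 6.87 and 7.87 in full and 6.07, 7.18 and 6.95 in BEC libraries, so that the intermediate libraries stood below all others and early replicate 3 was the highest of the series. Its log2 change was -1.003 (SE 0.23, adjusted p = 0.00235), or -0.34 scaled by total counts (adjusted p = 0.209), and 1.25 (SE 0.22, adjusted p = 0.000544).

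Cdc25c, the phosphatase that releases Cdk1 from inhibition, was barely counted in intermediate cells. It had 10, 6 and 18 counts in the early libraries, 1, 0 and 2 in the intermediate, 27, 32 and 22 in the full and 39, 29 and 45 in the BEC libraries. Every intermediate library was at or under the floor of 3 counts. From the summed counts, the level in full cells was 20.3 times that in intermediate cells (95% exact interval 6.72 to 101, counting error only), and the level in early cells was 16.3 times (5.13 to 83.0). Cdc25c shares 12.7% of its exon bases with an opposite-strand gene, and whether the counting used strand is not given in the sources used here. Of the remaining 3 members, Ccna2, Ccnb2 (cyclins of mitotic entry) and Cdc20 (the activator of the anaphase promoting complex), the change at the first step ran from -2.77 for Ccnb2 to -1.21 for Cdc20 (-0.86 without early replicate 3, when Cdc20 and Ccna2, at -0.95, were not called) and at the next from 2.44 for Cdc20 to 3.40 for Ccna2. Ccna2 shares 12.5% of its exon bases with Exosc9 on the other strand. Ccnb2 was at 14.1, 4.001 and 8.34 CPM in early libraries, which overlaps its full and BEC levels.

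The spindle checkpoint holds back anaphase until every kinetochore is attached, and 3 of its 4 members fell at the first step while all 4 rose at the next. Ttk, the Mps1 kinase at the top of the checkpoint, was at 1.27, 0.909 and 2.75 CPM in early, 0.189, 0.164 and 0.679 in intermediate, 4.55, 4.59 and 6.78 in full and 3.66, 2.28 and 4.98 in BEC libraries. Its intermediate libraries were below all others, and the full libraries were above all early ones. Ttk was 4.70-fold lower in intermediate than in early cells (log2 -2.23, SE 0.59, edgeR adjusted p = 0.00563) and 15.04-fold higher in full than in intermediate cells (log2 3.91, SE 0.53, adjusted p = 5.72e-05). Without early replicate 3 its first change was -1.64 (adjusted p = 0.0436). Mad2l1, the Mad2 protein that holds Cdc20 inactive, moved least, at 14.9, 9.55 and 15.5 CPM in early, 5.53, 8.88 and 7.70 in intermediate, 15.998, 13.9 and 16.1 in full and 15.03, 13.7 and 17.7 in BEC libraries. The intermediate libraries were again the lowest, and the other 3 groups overlapped. Its log2 change was -0.85 (SE 0.21, adjusted p = 0.0033), or -0.19 scaled by total counts (adjusted p = 0.428), and 1.05 (SE 0.20, adjusted p = 0.000927).

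The checkpoint kinase Bub1 and the related Bub1b parted at the first step. Bub1 had a log2 change of -1.50 (SE 0.48, edgeR adjusted p = 0.0172), or -0.71 (adjusted p = 0.186) without early replicate 3, whereas Bub1b was not called at -0.22 (SE 0.45, adjusted p = 0.71), or 0.73 without that library; the difference between the genes was not tested. Bub1b was at 1.03, 1.64 and 4.94 CPM in early and 2.58, 1.75 and 2.26 in intermediate libraries, so that its direction at this step depends on early replicate 3, and it reached 16.7, 16.7 and 18.2 in full libraries. At the next step Bub1 changed by 3.62 and Bub1b by 2.97, both called.

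Kinetochore genes build the plate that binds microtubules on each centromere, and 4 of 7 fell at the first step while all 7 rose at the next. Ndc80, the microtubule-binding subunit that names its complex, was at 0.0791, 0.637 and 1.78 CPM in early, 0.251, 0.274 and 0.396 in intermediate, 4.42, 7.45 and 7.96 in full and 5.01, 5.45 and 8.32 in BEC libraries. Full and BEC libraries stood far above both other groups, which overlapped because early replicate 1 held 1 count. Ndc80 was 20.98-fold higher in full than in intermediate cells (log2 4.39, SE 0.58, edgeR adjusted p = 4.5e-05), and its change of -1.41 at the first step (SE 0.73, adjusted p = 0.12), or -0.14 without early replicate 3, was not called. That fall was called by DESeq2, with no filter on low counts and without early replicate 1. It was also called with the replicate number as a block together with offsets for length and GC content. Cenpa, the histone variant that marks centromeres, was at 12.02, 6.46 and 12.7 CPM in early, 6.48, 4.71 and 6.23 in intermediate, 8.72, 10.4 and 14.7 in full and 6.07, 8.06 and 11.3 in BEC libraries. Its groups lay close together, and the intermediate range overlapped both the early and the BEC range. The log2 change of Cenpa was -0.85 (SE 0.30, adjusted p = 0.0272), or -0.68 (adjusted p = 0.108) without early replicate 3, and 0.96 at the next step (SE 0.29, adjusted p = 0.0171), or 0.72 (adjusted p = 0.0873) without full replicate 3 and 0.82 (adjusted p = 0.0785) without intermediate replicate 2.

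The other subunits of the Ndc80 complex did not share 1 pattern. Nuf2, which pairs with Ndc80, changed by -2.19 (SE 0.70, edgeR adjusted p = 0.0163; -1.04 and 0.209 without early replicate 3) and then by 4.08 (SE 0.62). Spc24, which anchors the complex to the inner kinetochore, was at 15.7, 21.3 and 31.8 CPM in early, 1.76, 2.74 and 4.19 in intermediate, 5.74, 5.98 and 5.60 in full and 4.62, 4.80 and 7.63 in BEC libraries. It was the only member called lower in full than in early cells, and its early libraries were the highest of all 12. Spc24 was 7.86-fold lower in intermediate than in early cells (log2 -2.98, SE 0.32, adjusted p = 3.66e-06) and 1.98-fold higher in full than in intermediate cells (log2 0.99, SE 0.32, adjusted p = 0.0254). The rise was no longer called without intermediate replicate 1 (0.74, adjusted p = 0.0945), intermediate replicate 2 (0.94, 0.0806), full replicate 1 (0.99, 0.0521) or full replicate 2 (0.96, 0.0636). Its partner Spc25 was at 7.43, 6.002 and 12.5 CPM in early, 3.02, 3.73 and 3.51 in intermediate, 7.79, 6.24 and 8.27 in full and 6.94, 6.38 and 8.68 in BEC libraries, with no excess of early over full libraries beyond their spread (log2 -0.22 in full against early cells, SE 0.25, adjusted p = 0.432). Per kilobase of the longest annotated transcript, Spc24 had 13.5 CPM in early cells, the highest level of the 47 genes there, and 3.40 in full cells, while Spc25 had 4.63 and 3.98. Spc24 shares no annotated exon bases with another gene.

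The large kinetochore proteins Cenpe, a kinesin that moves chromosomes to the spindle equator, and Cenpf were not called at the first step, with log2 changes of -0.56 (SE 0.49) and -0.88 (SE 0.59), or 0.41 and -0.08 without early replicate 3. Cenpf was at 1.90, 1.18 and 4.94 CPM in early, 1.07, 0.438 and 2.89 in intermediate and 20.8, 26.6 and 35.6 in full libraries. It was 18.8-fold higher in full than in intermediate cells, and Cenpe 8.43-fold. The ranges of Cenpe and Cenpf in early and intermediate cells overlapped, and those in full cells stood above both.

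The chromosomal passenger complex joins the Aurora B kinase to Incenp, Birc5 and Cdca8, and 3 of the 4 fell at the first step while all 4 rose at the next. Aurkb, the kinase, was at 0.949, 1.36 and 6.39 CPM in early, 1.13, 0.548 and 1.36 in intermediate, 8.51, 8.61 and 10.7 in full and 7.27, 10.4 and 13.6 in BEC libraries. Early replicates 1 and 2 lay within or near the intermediate range and early replicate 3 alone stood above it. The log2 change of Aurkb was -1.53 (SE 0.60, edgeR adjusted p = 0.0459), or -0.18 (adjusted p = 0.774) without early replicate 3, and 3.19 at the next step (SE 0.55, adjusted p = 0.000409). Incenp, the scaffold, was at 5.46, 6.46 and 12.6 CPM in early, 12.2, 10.8 and 10.98 in intermediate, 25.9, 31.1 and 31.4 in full and 22.98, 25.5 and 34.5 in BEC libraries. It did not follow the others at the first step, at 0.46 (SE 0.26, adjusted p = 0.143), or 0.51 with the replicate number as a block (adjusted p = 0.0497) and 0.93 (adjusted p = 0.00192) without early replicate 3. Between intermediate and full cells it changed by 1.38 (SE 0.24, adjusted p = 0.000392). Birc5, survivin, was at 6.17, 3.55 and 5.91 CPM in early, 1.07, 0.438 and 0.906 in intermediate, 5.74, 5.53 and 6.78 in full and 6.02, 5.87 and 8.04 in BEC libraries, so that 1 group alone stood apart, the intermediate one. Birc5 was 6.52-fold lower in intermediate than in early cells (log2 -2.70, SE 0.33, adjusted p = 1.03e-05) and 7.50-fold higher in full than in intermediate cells (log2 2.91, SE 0.32, adjusted p = 8.18e-06). Cdca8, borealin, whose window has a homology region joined to a CCAAT box, changed by -1.06 (SE 0.31, adjusted p = 0.0111; -0.64 and 0.0859 without early replicate 3) and 1.86 (SE 0.30).

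**Figure D4:**
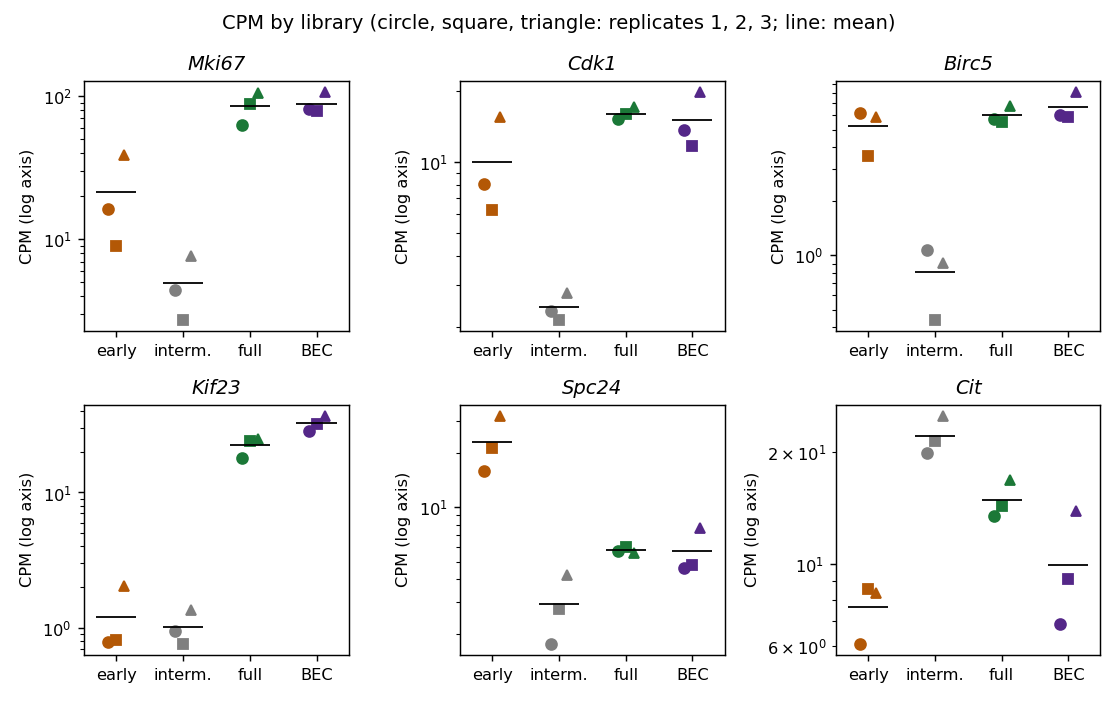
CPM of Mki67, Cdk1, Birc5, Kif23, Spc24 and Cit in each library, on a log axis that differs between panels. Circles, squares and triangles are replicates 1, 2 and 3 and the line is the group mean. Mki67, Cdk1 and Birc5 are lowest in the intermediate libraries, Kif23 is low in both early and intermediate libraries, Spc24 is highest in early libraries (15.7 to 31.8 CPM) and Cit in intermediate libraries (19.9 to 25.0 CPM).

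Spindle assembly factors and motors separate the poles and focus microtubules, and 5 of 8 fell at the first step while all 8 rose at the next. Kif4, the chromokinesin that also shortens the central spindle, was at 1.11, 0.818 and 5.42 CPM in early, 0.251, 0.548 and 0.736 in intermediate, 5.96, 8.92 and 8.44 in full and 8.43, 7.32 and 9.78 in BEC libraries. The 3 intermediate libraries were the lowest and the full and BEC libraries the highest, with no overlap. Kif4 was 4.72-fold lower in intermediate than in early cells (log2 -2.24, SE 0.64, edgeR adjusted p = 0.00873), or by a log2 change of -0.89 (adjusted p = 0.124) without early replicate 3, and 14.8-fold higher in full than in intermediate cells (log2 3.89, SE 0.58, adjusted p = 0.000123). It shares 15.1% of its exon bases with Pdzd11 on the other strand. Nusap1, which bundles microtubules around chromosomes, was at 2.06, 2.91 and 5.83 CPM in early, 2.26, 3.18 and 3.28 in intermediate, 11.6, 13.3 and 14.8 in full and 12.8, 11.3 and 16.1 in BEC libraries. Early and intermediate libraries overlapped and the full and BEC libraries stood above both. Nusap1 was not called at the first step (-0.30, SE 0.32, adjusted p = 0.449; 0.25 without early replicate 3) and rose by 2.18 at the next (SE 0.29, adjusted p = 4.97e-05).

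Of the remaining spindle genes 4 were called at the first step and Kif15 and Aspm were not; differences between them were not tested. Hmmr, a spindle pole and hyaluronan-binding protein, had the largest fall at -2.69 (SE 0.51, edgeR adjusted p = 0.0005). Falls were also called for Tpx2, which nucleates microtubules near chromosomes (-1.66), the microtubule depolymerase Kif2c (-1.21) and Kif11, the kinesin that pushes the poles apart (-1.14). Without early replicate 3 Hmmr was still called, at -2.04, and Tpx2 (-0.95), Kif2c (-0.61) and Kif11 (-0.23) were not. Kif15, a spindle kinesin that can stand in for Kif11, and Aspm, which focuses spindle poles, were not called, at -0.80 (SE 0.46) and -0.53 (SE 0.51), or -0.42 and 0.59 without that library. Between intermediate and full cells these 6 rose, from 2.89 for Kif2c to 3.56 for Hmmr.

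Of the 8 central spindle and cytokinesis genes 2 fell and 1 rose at the first step (25.7% and 28.7% of all genes), with a median of -0.50, so that the share of falls was near that of all genes. At the next step 7 rose and 1 fell. Kif23, the kinesin of centralspindlin, which bundles the midzone and recruits the exchange factor Ect2, was at 0.791, 0.818 and 2.02 CPM in early, 0.943, 0.767 and 1.36 in intermediate, 17.95, 24.2 and 24.8 in full and 28.4, 32.1 and 36.6 in BEC libraries. Early and intermediate libraries overlapped at about the same low level, and every full library was far above them. Kif23 had a log2 change of -0.25 at the first step (SE 0.38, edgeR adjusted p = 0.604; 0.35 without early replicate 3) and was 21.7-fold higher in full than in intermediate cells (log2 4.44, SE 0.28, adjusted p = 8.91e-08), the largest change of the 47 genes at that step. Its centralspindlin partner Racgap1, a GTPase-activating protein, differed from it in early cells, at 6.96, 2.64 and 9.63 CPM in early, 2.14, 1.86 and 3.28 in intermediate, 17.997, 20.2 and 23.7 in full and 21.8, 22.1 and 30.8 in BEC libraries. Racgap1 fell by 2.66-fold (log2 -1.41, SE 0.37, adjusted p = 0.00538), a fall not called when scaled by total counts, and then rose 8.46-fold (log2 3.08, SE 0.35). Per kilobase of transcript, early cells had 0.356 CPM of Kif23 and 1.43 CPM of Racgap1, and full cells 6.57 and 4.61.

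Cit, citron kinase, which organises the midbody ring, ran against most of the other genes. It was at 6.09, 8.55 and 8.34 CPM in early, 19.9, 21.4 and 24.96 in intermediate, 13.4, 14.3 and 16.8 in full and 6.89, 9.09 and 13.8 in BEC libraries. The intermediate libraries were the highest of the series, the full libraries lay below them with BEC replicate 3 in their range, and the early and BEC ranges overlapped. Cit was 2.89-fold higher in intermediate than in early cells (log2 1.53, SE 0.23, edgeR adjusted p = 7.26e-05), a rise called in all 12 fits that left out 1 library. Its fall of -0.57 between intermediate and full cells (SE 0.21, adjusted p = 0.046) was at the edge of the threshold and was not called without early replicate 2 (-0.58, adjusted p = 0.0512), early replicate 3 (-0.57, 0.0506), intermediate replicate 2 (-0.60, 0.0856), intermediate replicate 3 (-0.48, 0.146), any of the full replicates (-0.67 to -0.50, 0.0511 to 0.134) or BEC replicate 2 (-0.57, 0.0584). The fall was also not called with median-of-ratios factors (-0.53, adjusted p = 0.0611), total counts (-0.37, 0.177) or a mean of at least 50 counts (-0.55, 0.0546). Its full and intermediate libraries did not overlap. Cit shares no annotated exon bases with another gene, and no homology region or CCAAT box was found in its promoter window.

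The remaining cytokinesis genes fell or were not called at the first step. Kif20a, the kinesin that carries the passenger complex to the midzone, changed by -1.83 on the log2 scale (SE 0.36, edgeR adjusted p = 0.000659) and shares 29.3% of its exon bases with Cdc23 on the other strand. Prc1, which cross-links midzone microtubules, changed by -1.24 (SE 0.54, adjusted p = 0.0677), or -1.11 with the replicate number as a block (adjusted p = 0.0313), and by 0.08 (adjusted p = 0.868) without early replicate 3. Ect2 (-0.49, SE 0.35), the ring scaffold anillin, Anln (-0.51, SE 0.31), and the kinesin Kif20b (0.33, SE 0.34) were not called at this step. Without early replicate 3 they were at 0.15, -0.06 and 0.95, and Kif20b was called (adjusted p = 0.0176). Prc1 shares 11.1% of its exon bases with Rccd1 on the other strand. Between intermediate and full cells Prc1 rose 10.6-fold, Kif20a 9.08-fold, Anln 7.79-fold, Ect2 4.15-fold and Kif20b 2.79-fold.

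Genes of mitotic chromosome structure fell for 4 of 6 members at the first step and rose for all 6 at the next. Mki67, the Ki-67 protein that coats mitotic chromosomes, was at 16.4, 9.003 and 38.8 CPM in early, 4.40, 2.74 and 7.70 in intermediate, 62.8, 88.8 and 106 in full and 81.8, 78.2 and 106 in BEC libraries. Every intermediate library was below every early library, and every full or BEC library above. Mki67 was 4.34-fold lower in intermediate than in early cells (log2 -2.12, SE 0.46, edgeR adjusted p = 0.00155) and 17.3-fold higher in full than in intermediate cells (log2 4.12, SE 0.46, adjusted p = 1.07e-05). Without early replicate 3 its first change was -1.36 (adjusted p = 0.00883). Top2a, the topoisomerase that untangles sister chromatids, was at 5.69, 6.18 and 30.4 CPM in early, 4.34, 3.67 and 6.57 in intermediate, 54.4, 67.9 and 74.5 in full and 67.8, 65.2 and 86.3 in BEC libraries. Early replicate 3 stood far above the other early libraries, which lay within the intermediate range. Its change at the first step was -1.54 (SE 0.51, adjusted p = 0.0205), or -0.28 (adjusted p = 0.391) without early replicate 3, and at the next 3.75 (SE 0.50, adjusted p = 4.57e-05).

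Condensin genes, whose products compact chromosomes, had smaller values than Mki67 and Top2a at the step to full cells. Smc4, the core subunit shared by both condensins, was at 35.7, 32.1 and 39.1 CPM in early, 26.4, 26.9 and 30.2 in intermediate, 45.1, 51.9 and 54.9 in full and 67.2, 60.01 and 60.2 in BEC libraries. All 4 groups were separate, in the order intermediate, early, full and BEC, with narrow spreads. Its log2 change was -0.36 (SE 0.11, edgeR adjusted p = 0.0127), which turned to 0.31 and a called rise under scaling by total counts, and -0.28 (adjusted p = 0.0655) without early replicate 3; at the next step it was 0.86 (SE 0.11, adjusted p = 2.34e-05). Its partner Smc2 changed by 0.12 (SE 0.29, adjusted p = 0.752), or 0.68 (adjusted p = 0.022) without early replicate 3, and then by 1.33 (SE 0.28). The condensin I subunits Ncapg and Ncaph differed in sign at the first step, at -1.77 (adjusted p = 0.0157; -0.62 and 0.236 without early replicate 3) and 0.71 (adjusted p = 0.0588; 0.72 and 0.0296 with the replicate number as a block, 1.11 and 0.00787 without early replicate 3). Ncaph was at 2.85, 2.18 and 4.94 CPM in early and 7.54, 3.67 and 5.26 in intermediate libraries, and Ncapg at 1.19, 1.27 and 5.67 and 0.943, 0.384 and 1.08. Ncapg shares 13.4% of its exon bases with Lcorl on the other strand. At the next step Ncapg rose 9.66-fold and Ncaph 2.93-fold.

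Foxm1 and Mybl2, the factors that act on the late cell cycle promoters, were not called at the first step and rose at the next. Foxm1 was at 4.43, 3.001 and 9.55 CPM in early, 2.14, 3.78 and 3.68 in intermediate, 17.95, 18.997 and 22.4 in full and 13.7, 19.8 and 19.9 in BEC libraries. Early and intermediate libraries overlapped, and the full and BEC libraries were above both. Its log2 change was -0.82 (SE 0.36, edgeR adjusted p = 0.0665), or -0.80 with the replicate number as a block (adjusted p = 0.0287) and -0.21 without early replicate 3 (adjusted p = 0.585). Between intermediate and full cells it was 2.62 (SE 0.33, adjusted p = 3.15e-05). Mybl2, B-Myb, was at 1.11, 1.36 and 1.29 CPM in early, 1.76, 1.59 and 1.92 in intermediate, 7.19, 6.29 and 6.56 in full and 5.11, 5.08 and 5.99 in BEC libraries. Its early libraries were all below its intermediate ones, but the change of 0.49 (SE 0.24, adjusted p = 0.0975) was not called; the next step was 1.92 (SE 0.20, adjusted p = 4.98e-06).

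**Figure D5:**
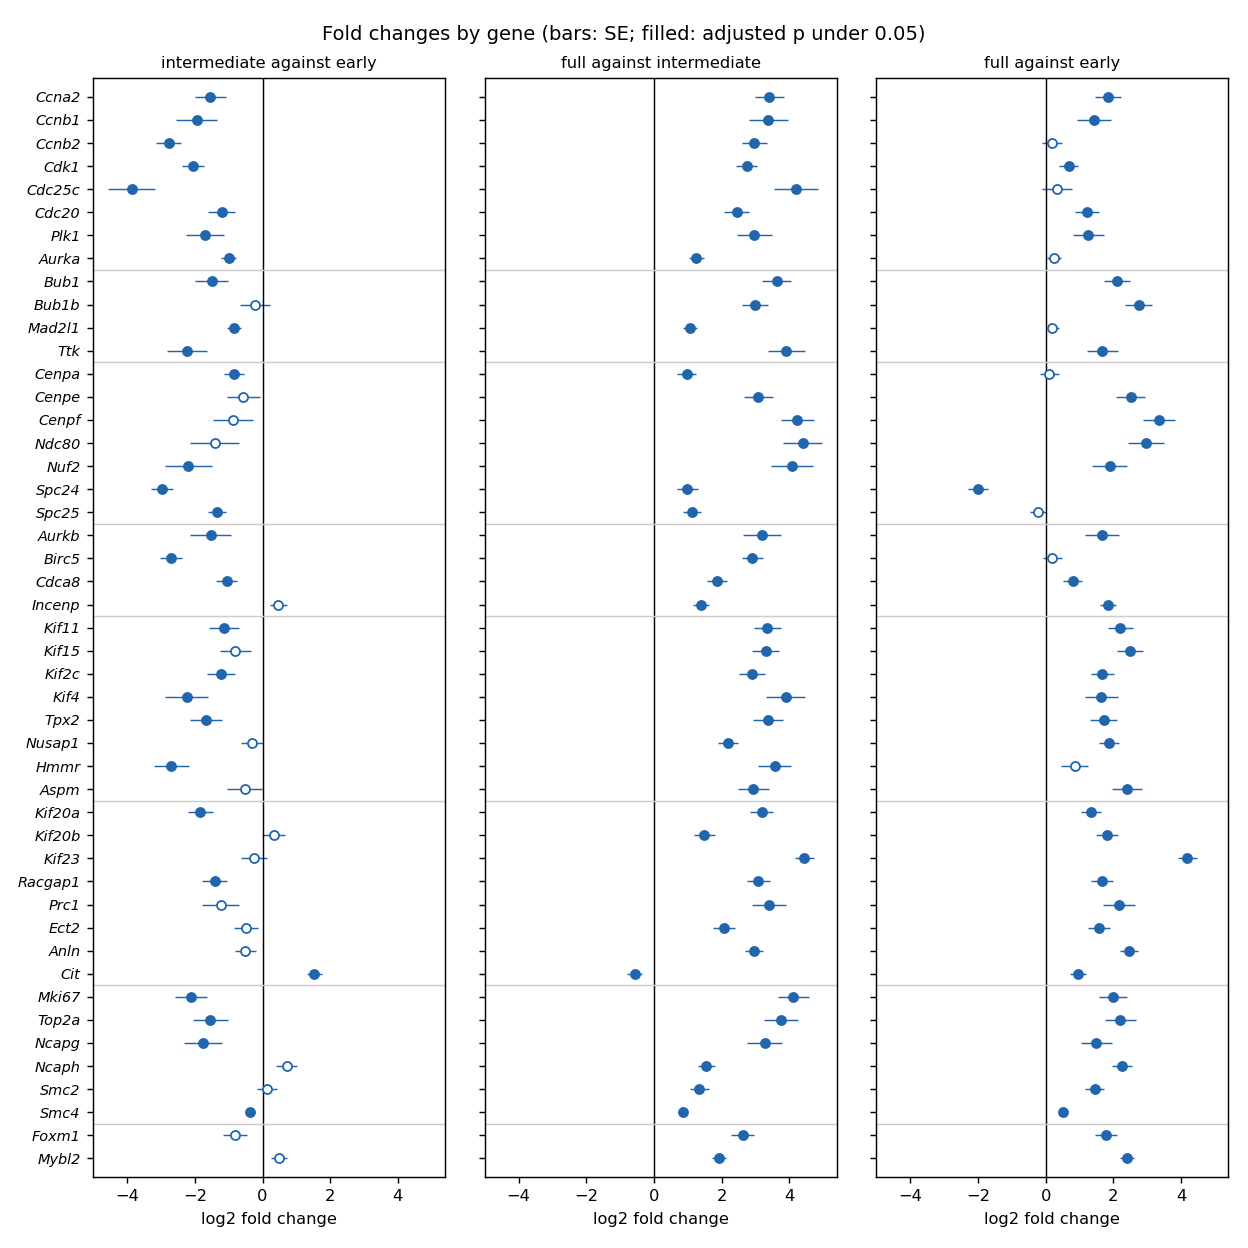
Log2 fold change of each of the 47 genes between intermediate and early (left), full and intermediate (middle) and full and early cells (right), with bars of 1 SE. Filled points have an edgeR adjusted p under 0.05. In the left panel 29 filled points lie below 0 and 1, Cit, above; in the middle 46 lie above 0 and Cit below; in the right 38 lie above 0 and Spc24 below.

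The number of falls called at the first step moved with early replicate 3. Without it, in a fit that kept the other 11 libraries, 13 of the 29 genes were still called lower, and the median log2 change of the 47 was -0.62. That fit called 8233 of 16770 genes tested, and 53.4% of these were higher, so the share of falls among the 47 came near that of all genes. The 13 were Ccnb2, Cdk1, Cdc25c, Aurka, Mad2l1, Ttk, Spc24, Spc25, Birc5, Hmmr, Kif20a, Racgap1 and Mki67. With the replicate number as a block, all 29 were called. In the same-numbered pairs of libraries, 30 of the 47 genes were lower in the intermediate library in all 3 pairs (34% of all genes). These include 27 of the 29, all but Nuf2 and Aurkb. The 29 were picked by a test on these same libraries, so the 27 are no separate support. In the fit without early replicate 3 Cit and 4 further genes, Incenp, Kif20b, Ncaph and Smc2, were called higher. Without early replicate 2 the same 29 remained and Prc1, Anln and Foxm1 were added. Without intermediate replicate 2, 20 of the 29 remained, the losses being Cdc20, Plk1, Bub1, Cenpa, Aurkb, Kif11, Kif2c, Top2a and Ncapg. Without intermediate replicate 1, 23 remained, and Cdc20, Nuf2, Aurkb, Kif11, Top2a and Smc4 were lost. Each of the other fits without 1 library kept at least 27 and lost no more than Cdc20 and Cenpa (early replicate 1), Aurkb and Kif2c (intermediate replicate 3) or Aurkb and Kif11 (any full replicate, BEC replicate 1 or 2). For 17 of the 47 genes every intermediate library lay below every early library (27.6% of all genes). Scaling by total counts moved the median of all genes from 0.06 to 0.72, and 85.6% in place of 52.8% of all called genes were then higher. The 47 genes then had 11 called falls (Ccnb2, Cdk1, Cdc25c, Ttk, Spc24, Spc25, Birc5, Kif4, Hmmr, Kif20a and Mki67) and 7 called rises. Their median relative to that of all genes was -1.28, beside -1.27 with the scaling used here. A change of scaling moves all genes by nearly the same amount, so these values were bound to agree and are no check on the fall.

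Other cell types were followed through marker genes at the same step. The summed hepatocyte markers went from 101991 to 106790 CPM to 15300 to 19948 CPM, with 12 of 12 called lower, and the summed biliary markers from 982 to 1972 CPM to 9880 to 12807 CPM, with 11 of 12 called higher. Of 4 erythroid markers tested 3 fell and 1 rose, and their list summed to 87.2 to 150 CPM in early and 39.5 to 49.4 CPM in intermediate libraries. Endothelial (19.9 to 28.8, then 10.4 to 24.8 CPM) and macrophage lists (26.3 to 29.7, then 31.1 to 43.0 CPM) each had 1 called rise and 1 called fall. The stellate and fibroblast list went from 144 to 372 CPM to 1837 to 2529 CPM, with 1 of 9 tested called higher, Rgs5, and 2 lower. The higher sum was that of Rgs5 (mean 41.0 to 1970 CPM), while the other 8 markers tested had negative log2 changes and the median of the 9 was -1.01. The part of these changes, and of the fall in mitochondrial share from 7.63% to 4.27%, in the level of the mitotic genes was not tested.

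The rise between intermediate and full cells did not rest on 1 library. In the 12 fits that each left out 1 library 44 to 47 genes were called and their median log2 change was 2.82 to 3.09. Full libraries lay above all intermediate libraries for 46 genes (28% of all genes), and with a test against a minimum 2-fold change 36 genes were called higher (7.72% of all genes). Scaling by total counts raised the median of all genes to 0.21 and the share of higher among all called genes from 51.2% to 72.6%, and left the same 46 rises. Between the same groups the hepatocyte markers were lower for 12 of 12 (median log2 change -2.35) and the biliary markers higher for 10 of 12 (median 3.07), and the mean mitochondrial share went from 4.27% to 2.33%. Macrophage markers rose for 1 of 10 tested, Csf1r, which went from 24.6 to 67.8 CPM in the mean, and the list summed to 31.1 to 43.0 and 66.7 to 99.3 CPM. Neutrophil, B cell and T and NK cell lists stayed at or under 1.02 CPM in both groups, with 8 of 9 neutrophil markers at 0 in every full library and a called rise of Ltf, the 1 tested. Globin genes and Slc4a1 were at 0 in the full libraries, 3 of 8 endothelial markers fell, and of 9 stellate markers tested 1, Rgs5, rose (mean 1970 to 3185 CPM) and 1 fell. The stellate list summed to 1837 to 2529 CPM in intermediate and 2993 to 3459 CPM in full libraries; the part of these changes, Csf1r- or Rgs5-expressing cells included, in the result was not tested.

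Full cells exceeded early cells as well as intermediate ones. In full against early cells 38 of the 47 genes were called higher (39.1% of all genes) and 1, Spc24, was called lower (32.1%), with a median log2 change of 1.68 beside 0.14 over all genes. The largest differences were those of Kif23 at 4.19 (SE 0.29, edgeR adjusted p = 1.41e-08), Cenpf at 3.35 (SE 0.47) and Ndc80 at 2.98 (SE 0.53), or 4.79, 4.15 and 4.25 without early replicate 3. The 8 genes not called were Ccnb2 (0.19), Cdc25c (0.33), Aurka (0.25), Mad2l1 (0.20), Cenpa (0.11), Spc25 (-0.22), Birc5 (0.20) and Hmmr (0.87). Of the kinases, cyclins and activators 5 of 8 were called, with a median of 0.96. All 8 cytokinesis genes were called, or 7 with offsets for length and GC content, with a median of 1.74; the difference between the classes was not tested. Cdk1 was higher by 0.68 (SE 0.28, adjusted p = 0.0394), but was not called without early replicate 1 (0.55, adjusted p = 0.128), early replicate 2 (0.43, 0.172), intermediate replicate 2 (0.68, 0.0507) or any of the full replicates (0.64 to 0.73, 0.0571 to 0.0887), or with the 6 libraries alone (0.65, 0.0638). Without trends with transcript length and GC content Cdk1 was at 0.42 (adjusted p = 0.183). Plk1 was not called without early replicate 1 (1.24, adjusted p = 0.0567), early replicate 2 (0.79, 0.0631) or full replicate 3 (1.11, 0.0764), or with the 6 libraries alone (1.23, 0.0514). Cdca8 was not called without early replicate 1 or 2 or full replicate 2 or 3 (0.56 to 0.78, 0.0542 to 0.105). Ccnb1 was not called without early replicate 2 (1.05, 0.0806) or full replicate 3 (1.31, 0.057), or by DESeq2 (1.43, 0.0715). Spc24 was -1.99 (SE 0.30, adjusted p = 3.84e-05), and Cit 0.96 (SE 0.23, adjusted p = 0.00195), which was 0.28 (adjusted p = 0.242) without those trends. Without early replicate 3, 41 genes were called, with Aurka (0.54) and Hmmr (1.52) added, Cdk1, Plk1 and Cdca8 were at 1.16, 1.97 and 1.22, Spc25 turned to 0.15, Mad2l1, Cenpa, Birc5 and Cdc25c were at 0.32, 0.28, 0.30 and 0.81 without a call, and the median was 2.40. Scaling by total counts gave 46 called rises, in a fit that called 13161 of 16210 genes, 81.8% of them higher, and moved the median of all genes to 1.005. Relative to it the median of the 47 was 1.53, beside 1.54 with the scaling used here. These values were bound to agree, because scaling moves all genes nearly alike. Between the same groups 12 of 12 hepatocyte, 7 of 9 stellate, 4 of 8 endothelial, 3 of 4 erythroid and 1 of 10 macrophage markers were called lower. Called higher were 12 of 12 biliary markers, 1 marker each of the stellate, erythroid and macrophage lists, and Ltf, the 1 neutrophil marker tested (3.04). Mean Rgs5, of the stellate list, was 41.0 CPM in early and 3185 CPM in full cells. The macrophage list summed to 26.3 to 29.7 CPM in early and 66.7 to 99.3 CPM in full libraries. The mean mitochondrial share was 7.63% in early and 2.33% in full cells. The part of these changes in the result was not tested. The values of the 47 genes share the full libraries with the comparison of full and intermediate cells.

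Genes with longer transcripts tended to have larger values in full against early cells. Over the 47 genes, Spearman's rank correlation between length and log2 change was 0.387, beside 0.195 over 15842 genes with a length; the points share libraries, so no p is given. The 24 shorter genes (up to 3806 bases) had a median change of 1.55 and the 23 longer ones 1.80. The same split over all genes with a length gave -0.06 and 0.41, a wider gap than among the 47.

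BEC and full cells were compared last, as the resident biliary cells and the reprogrammed cells that carry both sorting markers. None of the 47 genes was called between them by edgeR, 3 had an unadjusted p under 0.05 (30.8% of all genes), and DESeq2 called 2. The median log2 change was -0.02, the gene changes ran from -0.58 for Cit to 0.58 for Cdc25c, and their SEs from 0.10 to 0.46. Differences well beyond an SE could go uncalled, as those of the 3 genes did. The 3 genes were Kif23 (0.54, SE 0.20, adjusted p = 0.0828), Smc4 (0.30, SE 0.10, adjusted p = 0.0534) and Cit (-0.58, SE 0.22, adjusted p = 0.0801). With the replicate number as a block all 3 were called, Kif23 at 0.54 (adjusted p = 0.0135), Smc4 at 0.31 (0.0317) and Cit at -0.61 (0.00773). Every BEC library was above every full library for Kif23 and Smc4 (20.6% of all genes) and below for Mybl2 (19%).

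BEC cells were also compared with early and intermediate cells, groups that these comparisons share with those of full cells. Against early cells 37 genes were called higher (40% of all genes) and Spc24 lower (33%), with a median of 1.66, or 2.25 without early replicate 3. Against intermediate cells 45 were called higher (26.3%) and Cit lower (26.2%), with a median of 3.07, and Cenpa at 0.55 (SE 0.29) was the gene not called. Kif23 was the most different of the 47 genes, 26.4-fold above early cells (log2 4.72, SE 0.28, edgeR adjusted p = 3.11e-09), or at 5.32 without early replicate 3. Between early and BEC cells 12 of 12 hepatocyte, 6 of 9 stellate, 2 of 8 endothelial and 2 of 4 erythroid markers were called lower, 1 marker of each of the last 3 lists was called higher, and so were 12 of 12 biliary markers. Against intermediate cells 12 of 12 hepatocyte markers were lower and 10 of 12 biliary markers higher. Ltf, the 1 neutrophil marker tested, was higher by 5.89 on the log2 scale against early and 7.15 against intermediate cells, at a mean of 3.70 CPM in BEC libraries, where 6 of 9 neutrophil markers were at 0. The mean mitochondrial share was 7.63% in early, 4.27% in intermediate and 2.88% in BEC cells. The macrophage list summed to 133 to 168 CPM in BEC libraries, with Csf1r at a mean of 127 CPM, and the part of these changes, Csf1r-expressing cells included, in the level of the 47 genes was not tested.

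Per kilobase of transcript, the order of the genes changed between groups. Spc24 (13.5 CPM), Smc4 (8.25) and Ccnb2 (5.75) had the highest levels in early cells. Smc4 (6.45), Incenp (3.28) and Smc2 (2.44) did so in intermediate cells, Top2a (12.6), Smc4 (11.7) and Cdc20 (8.96) in full cells, and Smc4 (14.5), Top2a (14.01) and Cdc20 (9.86) in BEC cells. Cdc25c was lowest in intermediate, full and BEC cells, at 0.0223, 0.448 and 0.669 CPM per kilobase.

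Across the 12 libraries most members followed 1 course. Pearson's r between a gene's log2 CPM and the mean of the other 46 was highest for Bub1, at 0.996, and lowest for Cit, at -0.28, Spc24, at 0.12, and Cenpa, at 0.61. Outside the list, the 8 genes with the highest r were Kif14 (0.990), Iqgap3 (0.989), Kntc1 (0.989), Espl1 (0.987), Kif22 (0.983), Clspn (0.982), Kif18b (0.981) and E2f7 (0.980). These are descriptions over libraries that fall into 4 groups.

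Other gene lists of mitosis and S phase were counted at the same steps, where 28.7% of all genes were called higher and 25.7% lower at the first and 20.8% and 19.8% at the next. Inner and outer kinetochore genes other than the members were called higher for 4 and lower for 3 of 28 at the first step, and higher for 18 and lower for 1 at the next, with the largest rises for the RZZ subunit Kntc1 (4.29) and the scaffold Knl1 (4.23). Genes of the anaphase promoting complex, its enzymes and inhibitors, and separase were higher for 10 and lower for 3 of 19 and then higher for 5. These were led by separase, Espl1 (3.97), and the ubiquitin-conjugating enzyme Ube2c (3.25). The 3 that were lower at the first step were Ube2c (-2.03), Espl1 (-1.73) and securin, Pttg1 (-0.73), while core subunits such as Anapc4 (0.81) were among those higher.

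Genes of the switch that turns Cdk1 on were higher for 3 of 9 at the first step and higher for 5 and lower for 1 at the next, led by the phosphatase Cdc25b (2.01) and the Greatwall kinase Mastl (1.59). Condensin and cohesin genes other than the members were higher for 6 and lower for 1 of 14 and then higher for 7, led by sororin, Cdca5 (2.29), and Ncapg2 (1.70). Centriole duplication genes were higher for 2 of 7, a share near that of all genes, and then for 6, led by Stil (2.51) and Plk4 (1.39). Abscission, septin and actomyosin genes were higher for 6 and lower for 2 of 18 and then higher for 5, led by the kinesin Kif14 (4.23) and the midbody protein Cep55 (3.10). The MuvB core, pocket proteins and E2F factors were higher for 5 and lower for 4 of 16 tested at the first step, with all 4 falls among E2F factors, E2f8 (-3.00), E2f7 (-1.90), E2f2 (-1.70) and E2f1 (-1.64). At the next step 6 rose, led by E2f7 (4.54) and E2f8 (3.49).

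DNA replication genes, which act in S phase, had few calls at the first step. Of 28, 3 were called lower in intermediate than in early cells, Rrm2 (-2.91), Mcm10 (-2.27) and Tyms (-0.53), none higher, and the median was -0.03, beside -1.21 for the mitotic genes. At the next step 20 of 28 rose, with a median of 0.97 and the largest changes for Cdc6 (3.05) and Pole (2.51); the difference between the lists was not tested. Between full and BEC cells none of the 28 was called.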

How the data were processed

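Reads were aligned and counted per gene by the authors with STAR 2.7.10b and featureCounts 2.0.1 on GRCm39, per the submitters' processing notes. The deposited values used here are raw counts per gene; strand settings and annotation are not given in the sources used here. Groups and replicate numbers came from the sample labels.

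Genes were filtered with edgeR's filterByExpr by group (16210 kept, all 47 members), scaled by the trimmed mean of M values and tested with edgeR 4.0.16 (quasi-likelihood, R 4.3.3, group as the only term, all 12 libraries, called under an adjusted p of 0.05). The common biological coefficient of variation was 14.8%. Log2 CPM used a prior count of 2. The procedure was tested on simulated data. Same-numbered libraries deviated together (r = 0.121 to 0.293, 0.137 to 0.322 and 0.170 to 0.257 for intermediate and early, full and intermediate, and BEC and full), so the numbers pair the libraries there, from the data; what a number marks is not stated.

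Alternatives were DESeq2 1.42.0, median-of-ratios or total-count scaling, no filter, a mean of at least 50 counts, the replicate block, the 6 libraries compared, a minimum 2-fold change, each library left out and, added after seeing the data, offsets for length and GC content. Transcript lengths and exon overlaps came from GENCODE M21. Members and lists were chosen with earlier results of these data known. Members named with values in every library were, in each class, those with the largest and smallest change between intermediate and full cells, plus Mki67, Top2a, Ccnb1, Cdk1, Plk1 and Aurkb; any member not called at either step is named, and Spc24, Birc5, Racgap1, Spc25, Mybl2, Bub1b, Cenpf, Ncaph and Ncapg were given more values after these were seen. In other lists the 2 largest changes between intermediate and full cells are named, with the called falls and Anapc4 added after seeing values. With 3 libraries a group, a permutation of 1 gene could not go under 0.1.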

Additional observations from a re-analysis of the deposited data

How the results depend on the processing

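The called count of the step from intermediate to full cells stayed within 1.5 times under every alternative (36 to 47). At the step from early to intermediate cells it was 18 with total counts as the scaling, 19 with the 6 libraries compared and 9 with a minimum 2-fold change. Over all genes these fits called 11249 of 16210, 7774 of 13996 and 2773 of 16210 at that step. Falls made up 11 of the 18, 18 of the 19 and 8 of the 9. Total counts gave medians of -0.56 for intermediate against early, 2.54 for full against early and 2.52 for BEC against early, with all-gene medians of 0.72, 1.005 and 1.004. That scaling put the median log2 CPM at 1.43, 0.73 and 2.26 in early, 0.98, 0.84 and 1.54 in intermediate, 3.69, 4.03 and 4.15 in full and 3.804, 3.78 and 4.20 in BEC libraries. A minimum 2-fold change left 25 called genes in full against early and 25 in BEC against early cells, where 5671 and 6129 of all 16210 genes were called. Between BEC and full cells 1 gene was called with median-of-ratios factors, with a mean of at least 50 counts, with the 6 libraries and with length and GC offsets, 2 with DESeq2 and with no filter, and 3 with the replicate block, alone or with offsets. Over all genes those fits called 2900 to 4412.

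Leaving out 1 library gave 18 to 33 called genes for intermediate against early (median -1.55 to -0.62), 0 to 2 for BEC against full, 35 to 41 for full against early (1.34 to 2.40) and 33 to 40 for BEC against early (1.29 to 2.25). In the same order, these fits called 8123 to 9059, 2644 to 3860, 10963 to 11848 and 11438 to 12083 of 16664 to 16829 genes tested. The replicate block also called 34 genes for intermediate against early, 40 for full against early (same-numbered r of 0.096 to 0.209) and 39 for BEC against early (r of 0.0442 to 0.145). Over all genes it called 9274, 11848 and 12122 of 16210 there. The block changed no other call than those of Incenp, Prc1, Ncaph, Foxm1, Kif23, Cit, Smc4, Hmmr (full against early) and Cdk1 (BEC against early).

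Signs turned, in intermediate against early with total counts, for Cenpe 0.0923, Aspm 0.12, Anln 0.15, Ect2 0.17, Smc4 0.31, Nusap1 0.35, Kif23 0.40 and Bub1b 0.44, and for Spc25 0.64 in full against early. Offsets turned Smc2 to -0.14 in intermediate against early, and Mad2l1 to -0.37 and Cenpa to -0.0758 in full against early; with the block as well they were -0.10, -0.36 and -0.0759. With 1 library left out, signs turned without early replicate 3 in intermediate against early, where the ranges were -0.604 to 0.73 for Bub1b, -0.933 to 0.41 for Cenpe, -0.59 to 0.25 for Nusap1, -0.902 to 0.59 for Aspm, -0.516 to 0.35 for Kif23, -1.62 to 0.0803 for Prc1 and -0.787 to 0.15 for Ect2. Smc2 ranged from -0.0934 to 0.678 there and was below 0 without early replicate 1, early replicate 2 (-0.0934) or intermediate replicate 3. In full against early, signs turned without early replicate 2 for Ccnb2 (-0.16 to 0.703), Mad2l1 (-0.000657 to 0.322), Cenpa (-0.14 to 0.284; also without full replicate 3) and Birc5 (-0.0183 to 0.342), and without early replicate 3 for Spc25 (-0.438 to 0.15). The causes were not tested. Members had a median of 34 counts per gene and library in intermediate cells, which limits the precision there.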
